A study of Homo sapiens with 6 samples.

Results

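The chemokine receptors CCR7 and CXCR4 and 8 chemokine ligands, CXCL1, CXCL2, CXCL3, CXCL5, CXCL16, CCL20, CCL2 and IL8, were followed in HepG2 cells given TGFβ. They are the rows of the deposited count table that carry these gene names, and make up 10 of its 57773 genes. HepG2 is a line established from a human hepatocellular carcinoma. All 6 cultures were grown as a monolayer with serum before treatment, and 3 received human recombinant TGFβ1 at 5 ng/mL while 3 received its vehicle, each for 3 h. The study's general treatment description has the medium replaced by serum-free medium at treatment, and the series was made to find genes that respond to TGFβ. No genetic change separates the groups, and the single line is the only model.

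Chemokines are small secreted proteins that guide migrating cells, and they act on G-protein-coupled receptors of the cell surface. CCR7 guides lymphocytes and dendritic cells to lymph nodes in response to CCL19 and CCL21, and CXCR4 answers CXCL12. Many CXC ligands that attract neutrophils, IL8 and CXCL1 among them, are genes whose transcription NF-κB switches on in inflamed liver and other tissues. TGFβ acts through SMAD transcription factors and is known for limiting inflammation in many settings.

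Of the 10 genes, CCR7 rose with TGFβ, to 2.30 times its vehicle level. IL8 and CCL20 had lower means with TGFβ and were called lower only when the cultures were compared within their replicate number. Their log2 fold changes were nearly the same in both fits. CXCL16, a strongly expressed ligand, showed no change past the threshold, and neither did CXCR4 and CXCL5, which had few reads. CXCL1, CXCL2, CXCL3 and CCL2 were too low to judge.

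The 6 libraries held between 60815385 and 100099136 reads counted on genes. The label check genes SMAD7, SKIL and PMEPA1, direct TGFβ targets, were called higher with log2 fold changes from 1.72 to 4.30. The 9 hepatocyte markers all passed the filter, and their summed level was between 35900 and 41800 CPM (reads scaled for TMM-adjusted library size) in every culture. With the replicate block described below, 0 of them were called higher and 2 lower, against 8.08% and 3.75% over all genes. Leukocyte markers bear on CCR7 and CXCR4, which leukocytes are known to express. PTPRC had 1 read in 1 TGFβ culture and 0 in the other 5, and CD3E and MS4A1 had 0 in all. All 15 leukocyte markers summed to between 1150 and 1470 CPM in vehicle cultures and between 1000 and 1100 in TGFβ cultures. The groups did not overlap in this sum, and LYZ, CD68 and CORO1A held nearly all of it. Without LYZ, CD68 and CORO1A, the summed level of the other 12 leukocyte markers was between 5.70 and 7.41 CPM in vehicle cultures and between 5.95 and 6.68 in TGFβ cultures. CD14 had between 122 and 331 reads and LCP1 between 155 and 283, and CSF1R had 0 in each vehicle culture and 5, 5 and 3 in TGFβ cultures 1 to 3. LYZ alone had between 76038 and 117907 reads and a log2 fold change of -0.35 (edgeR FDR 0.106, and 0.0157 with the block). The 4 endothelial markers in the table summed to at most 0.272 CPM, with KDR at 0. The 7 fibroblast markers summed to between 13.7 and 15.0 CPM in vehicle cultures and between 23.3 and 34.7 in TGFβ cultures. PDGFRB and COL1A1 held nearly all of these reads, and COL1A2, DCN, LUM and THY1 had at most 8 reads in any culture. The 2 fibroblast markers that passed the filter had log2 fold changes of 0.57 and 1.22 and were called higher only with the block. The part of these markers in the results was not tested.

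The genes were tested with edgeR's quasi-likelihood test over 22747 genes that had enough reads, and a gene was called at a Benjamini-Hochberg FDR under 0.05. Of all tested genes, 4.12% were called, 3.11% higher and 1.01% lower with TGFβ. Cultures with the same replicate number deviated together, so a second fit took the number as a block. Both libraries numbered 1 were in sequencing lane 1 and both numbered 2 in lane 3. Number 3 was in lane 4 for vehicle and lane 5 for TGFβ. Replicate number and lane thus cannot be told apart for numbers 1 and 2, and the part of lane was not tested. It called 11.8% of all tested genes, 8.08% higher and 3.75% lower. Of the 10 genes 6 passed the filter on low counts, and 1 of them was called higher and 0 lower without the block. IL8, on the lower side, had an unadjusted edgeR p of 0.0221 and an FDR of 0.23, which did not pass. With the block 1 was called higher and 2 lower.

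Levels between genes were compared as RPKM, the deposited reads scaled to coding length and library size. CCL20 had the highest vehicle level, 18.9 ± 4.66 RPKM (SD, n = 3), and CXCL16 followed with 11.6 ± 0.953 RPKM. These 2 ligands overlapped across the 6 cultures. IL8 stood below both in every culture, at 3.03 ± 0.808 RPKM. CCR7 stood below IL8 in every culture, at 0.343 ± 0.0286 RPKM. A gap then separated CCR7 from CXCL5 and CXCR4, whose vehicle means were 0.0600 ± 0.0245 and 0.0599 ± 0.0286 RPKM and could not be ordered. CXCL2 reached 0.0395 ± 0.0142 RPKM, which overlapped CXCR4. Among all tested genes, 89.2% lay below CCL20 in mean vehicle RPKM, 82.2% below CXCL16, 55.6% below IL8 and 22.6% below CCR7, but only 6.05% below CXCR4.

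**Figure D1:**
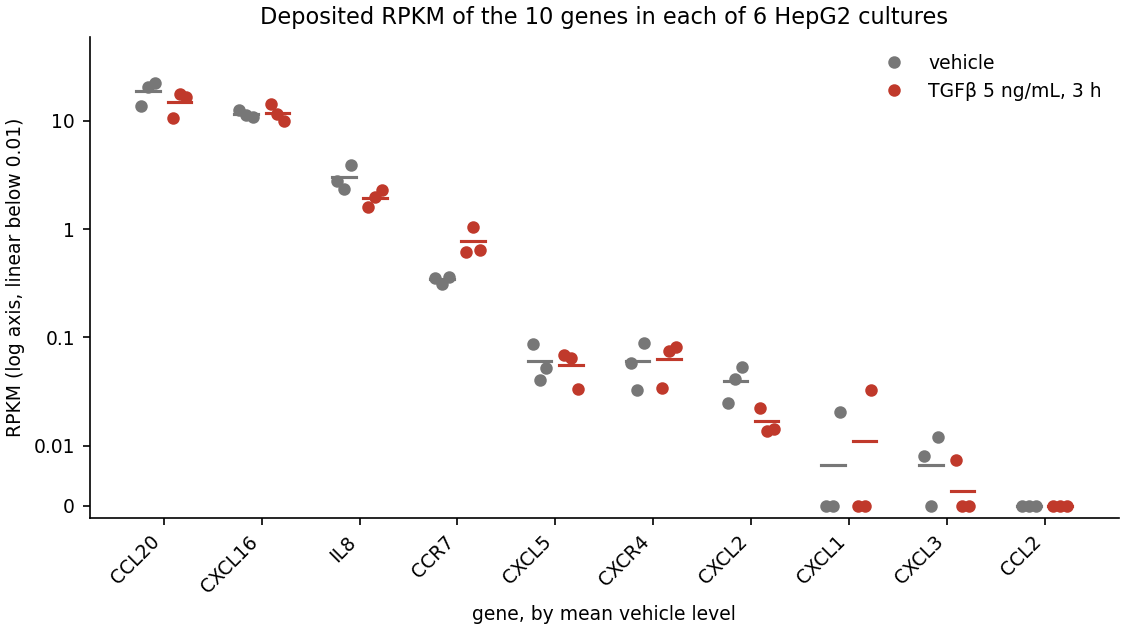
Deposited RPKM of the 10 genes in each HepG2 culture (points, 3 vehicle in grey and 3 TGFβ in red), on an axis that is logarithmic above 0.01 and linear below it, with bars at the group means. CCL20 and CXCL16 lie near 10 RPKM or above, IL8 between 1.59 and 3.93, CCR7 between 0.311 and 1.05, and CCL2 at 0 in all 6 cultures.

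Among the receptors, CCR7 (ENSG00000126353, hg19 chr17:38710021-38721724) rose. It had 96, 76 and 69 reads in vehicle cultures 1 to 3, and 186, 255 and 153 reads in TGFβ cultures 1 to 3. The groups did not overlap, also after scaling to library size, where the means were 1.04 ± 0.109 CPM with vehicle and 2.40 ± 0.676 CPM with TGFβ (SD, n = 3). Its log2 fold change was 1.20 ± 0.23 (SE), with a 95% interval from 0.68 to 1.72 and an edgeR FDR of 0.0176. With the replicate block it was 1.18 ± 0.21, with an FDR of 0.00299. Within replicate numbers 1, 2 and 3 the log2 ratio was 0.82, 1.79 and 0.91, so culture 2 showed the largest rise. Without the block the call was lost without vehicle replicate 1 (edgeR FDR 0.0572), vehicle replicate 2 (0.0954), vehicle replicate 3 (0.069) or TGFβ replicate 2 (0.0719), while the log2 fold change stayed between 0.94 and 1.25 in these fits. The blocked call held without number 1, 2 or 3, with FDRs of 0.00466, 0.0388 and 0.000299. The study picked CCR7 for follow-up from these same libraries, so its rise here is not independent evidence. Apart from the sequencing, the study reported by quantitative PCR that TGFβ raised CCR7 mRNA in HepG2 cells. An exact permutation test over the 20 splits of 6 cultures gave p = 0.1 for CCR7 (two-sided), the smallest value 3 against 3 cultures allow.

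CCR7 remained a low transcript. All vehicle cultures together held 241 reads on the gene and all TGFβ cultures 594. Even after TGFβ its mean level, 0.773 ± 0.239 RPKM, was below that of IL8, 1.96 ± 0.359 RPKM. The 5 tested genes whose log2 CPM ran most like CCR7 over the 6 cultures were PXN-AS1, YPEL5, DLX2, CTC-250I14.6 and PITPNC1, with Pearson r between 0.989 and 0.995. This is a description of 6 points picked from 22747 genes. Of these 5, DLX2, a homeobox transcription factor, had a log2 fold change of 1.10 (edgeR FDR 0.0245), and CTC-250I14.6 had 0.67 (edgeR FDR 0.00522).

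CXCR4 (ENSG00000121966, hg19 chr2:136871919-136875735) was barely transcribed and its groups overlapped. It had 14, 7 and 15 reads in vehicle cultures 1 to 3, and 9, 16 and 17 reads in TGFβ cultures 1 to 3. The lowest TGFβ culture and the lowest vehicle culture carried different replicate numbers. Its log2 fold change was 0.12 ± 0.48 (SE), with an edgeR FDR of 0.954 and a 95% interval from -0.96 to 1.20. The upper end of the interval just reaches the log2 fold change of CCR7, so in this fit a rise of that size could not be told from no change at this depth. With the block the CXCR4 interval ran from -0.86 to 1.06, and CCR7 stood at 1.18 in that fit. The genes that ran most like CXCR4, MIR2277, RP11-160H12.3, RP11-405L18.2, RIBC1 and POPDC2, had Pearson r between 0.976 and 0.993 over the 6 cultures and mean vehicle levels of at most 0.654 CPM.

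The chemokine ligands of CCR7, CCL19 and CCL21, and CXCL12, the chemokine ligand of CXCR4, were at 0 in all 6 cultures. MIF, which is also known to bind CXCR4, had 132 RPKM with vehicle and 133 RPKM with TGFβ. A count of 0 against 3 reads over the 482987239 scaled reads of all cultures allows up to 0.00621 CPM, for counting error only.

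IL8 (ENSG00000169429, hg19 chr4:74606223-74609433), also named CXCL8, is a neutrophil attractant that acts on CXCR1 and CXCR2. It had 686, 526 and 675 reads in vehicle cultures 1 to 3, and 432, 437 and 494 reads in TGFβ cultures 1 to 3. Each TGFβ culture had fewer reads than every vehicle culture, but after scaling the groups overlapped, with 7.77, 6.35 and 11.0 CPM against 4.46, 5.43 and 6.78 CPM. TGFβ culture 3, the highest of its group, lay above vehicle culture 2. The log2 fold change was -0.59 ± 0.22 (SE) with an unadjusted p of 0.0221, and the edgeR FDR of 0.23 did not pass. With the replicate block it fell by 0.58 ± 0.12 on the log2 scale, with an FDR of 0.00911. The log2 ratio was -0.80, -0.22 and -0.69 within numbers 1, 2 and 3, lower in 3 of 3 pairs. Without both cultures numbered 1 the blocked log2 fold change was -0.47 and its edgeR FDR of 0.064 did not pass.

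CCL20 (ENSG00000115009, hg19 chr2:228678558-228682272), the ligand of CCR6 that attracts Th17 cells and immature dendritic cells, moved less but more evenly. It had 1966, 2716 and 2252 reads in vehicle cultures 1 to 3, and 1706, 2321 and 2095 reads in TGFβ cultures 1 to 3. Number 1 was lowest in both groups, with 22.3 CPM in vehicle and 17.6 CPM in TGFβ, and the groups overlapped. The log2 fold change was -0.29 ± 0.21 (SE), with an edgeR FDR of 0.681. With the block it fell by 0.29 ± 0.06 on the log2 scale, with an FDR of 0.00934 and a 95% interval from -0.43 to -0.15. Within numbers 1, 2 and 3 the log2 ratio was -0.34, -0.18 and -0.35. The SD of these 3 ratios was 0.09, against 0.56 for a difference of unpaired cultures. The blocked call held without either number 1, 2 or 3, with FDRs of 0.0347, 0.0195 and 0.0402.

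**Figure D2:**
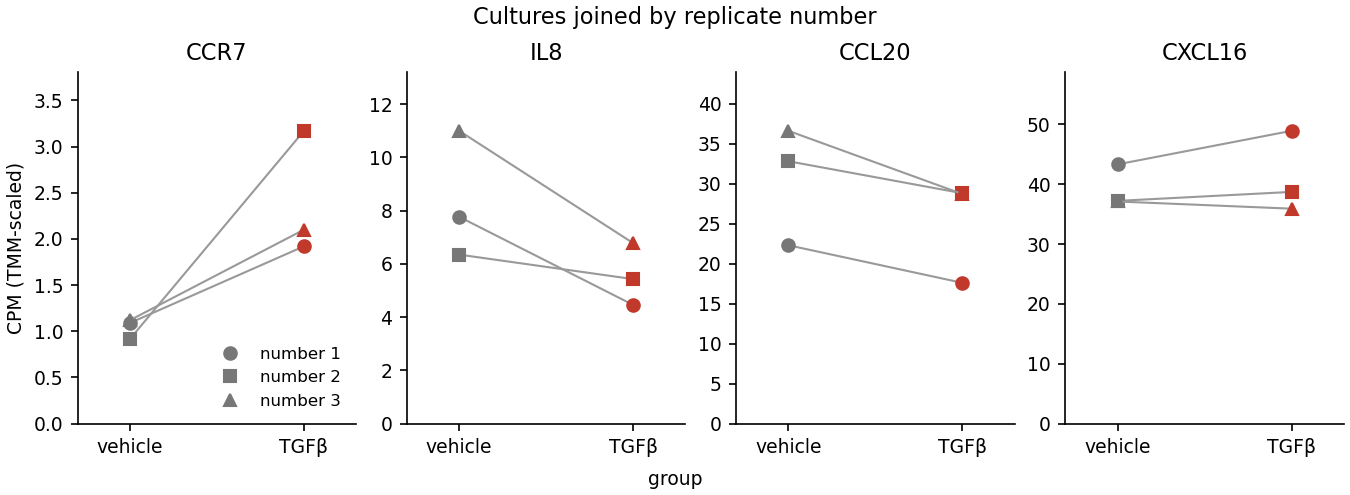
TMM-scaled CPM of CCR7, IL8, CCL20 and CXCL16 in vehicle (grey) and TGFβ (red) cultures, with lines joining cultures of the same replicate number and each axis starting at 0. All 3 lines rise for CCR7 and all 3 fall for IL8 and CCL20, and those of CXCL16 run both ways.

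CXCL16 (ENSG00000161921, hg19 chr17:4636821-4643217) is made as a membrane-bound ligand of CXCR6, which ADAM10 sheds. It had 3823, 3079 and 2282 reads in vehicle cultures 1 to 3, and 4736, 3116 and 2614 reads in TGFβ cultures 1 to 3. After scaling the groups overlapped, at 39.2 ± 3.58 CPM with vehicle and 41.2 ± 6.84 CPM with TGFβ (SD, n = 3). The log2 fold change was 0.07 ± 0.12 (SE), with an edgeR FDR of 0.879 and a 95% interval from -0.20 to 0.34. With the block the interval ran from -0.07 to 0.20. CXCL16 shares 85 bases of its span with MED11, a Mediator subunit, which had between 722 and 1085 reads per culture and a log2 fold change of -0.22 (edgeR FDR 0.522).

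**Figure D3:**
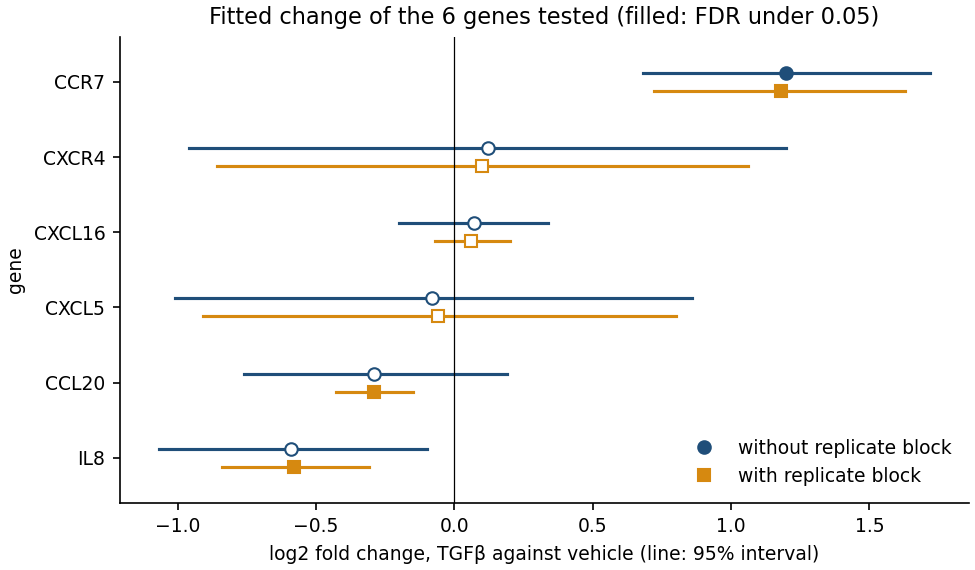
Fitted log2 fold change of the 6 genes that passed the filter, without (circles) and with (squares) the replicate number as a block, with 95% intervals as lines and filled symbols for an FDR under 0.05. CCR7 is filled in both fits at 1.20 and 1.18, IL8 and CCL20 only with the block at -0.58 and -0.29, and CXCR4 and CXCL5 have the widest intervals.

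IL8 was the one well-covered gene of its cluster on chromosome 4. The 9 CXC ligand genes from IL8 to CXCL2 span 359 kb of hg19, and IL8 held 96.3% of their reads. CXCL6, PF4V1, PF4 and PPBP, 4 of the 9, had 0 reads in all cultures. CXCL5 (ENSG00000163735, hg19 chr4:74861359-74864496), an attractant of neutrophils, had 24, 10 and 10 reads in vehicle cultures 1 to 3 and 21, 16 and 8 reads in TGFβ cultures 1 to 3. Number 1 was highest in both groups and the groups overlapped. Its log2 fold change was -0.08 ± 0.42 (SE), with an edgeR FDR of 0.966 and a 95% interval from -1.01 to 0.86.

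CXCL1, CXCL2 and CXCL3, the closely related GRO ligands of CXCR2, did not reach the filter. CXCL2 (ENSG00000081041, hg19 chr4:74962752-74965010) had 4, 6 and 6 reads in vehicle cultures 1 to 3, and 4, 2 and 2 reads in TGFβ cultures 1 to 3. After scaling the TGFβ cultures lay below the vehicle cultures, by as little as 0.0413 against 0.0453 CPM. The ratio of TGFβ to vehicle over the summed reads was 0.465, with an exact 95% interval for counting error from 0.172 to 1.15. CXCL1 (ENSG00000163739, hg19 chr4:74735110-74736959) had 2 reads in vehicle culture 3 and 4 reads in TGFβ culture 3, and 0 in the other 4 cultures, a ratio of 1.86 with an interval from 0.267 to 20.6. CXCL3 (ENSG00000163734, hg19 chr4:74902306-74904524) had 2, 0 and 2 reads in vehicle cultures and 2, 0 and 0 reads in TGFβ cultures, a ratio of 0.465 with an interval from 0.0421 to 3.24. All 3 intervals include no change. Sequence is shared between these genes, and whether any counted read came from a shared stretch is not known. Of all 51-base stretches of their GENCODE transcripts, 4.27% of CXCL1, 13.0% of CXCL2 and 5.92% of CXCL3 occur in another of the compared CXC genes, and 0% of CXCL5 and of IL8.

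CCL2 (ENSG00000108691, hg19 chr17:32582304-32584222), the monocyte attractant that acts on CCR2, had 0 reads in all 6 cultures. A floor of 3 reads over a group allows up to 0.0129 CPM with vehicle and 0.0120 CPM with TGFβ. No fold can be given. AC005549.3, which overlaps CCL2 by 3 bases, also had 0 reads.

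The promoter letters of 6 ligands are shown because IL8 and CCL20 were well expressed and CXCL1, CXCL2, CXCL3 and CXCL5 were not, while the same short NF-κB pattern stands before all of them. RefSeq promoter entries on GRCh38.p14 were matched for 7 of the 10 genes, and CCR7, CXCL16 and CCL2 had none. Capitals mark matches, on either strand, to an NF-κB pattern GGNNNTTCC, to the AP-1 element TGANTCA, to the SMAD-binding letters GTCTG or to the TATA box TATAAA, and each stretch ends at the base before the start of transcription. No match overlaps a match to another pattern. IL8 (chr4:73740419-73740568, plus strand) and CCL20 (chr2:227813692-227813841, plus strand) are given over 150 bases:
IL8: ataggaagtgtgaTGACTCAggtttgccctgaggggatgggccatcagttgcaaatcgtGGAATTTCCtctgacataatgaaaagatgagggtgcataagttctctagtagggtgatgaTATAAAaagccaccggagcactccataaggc
CCL20: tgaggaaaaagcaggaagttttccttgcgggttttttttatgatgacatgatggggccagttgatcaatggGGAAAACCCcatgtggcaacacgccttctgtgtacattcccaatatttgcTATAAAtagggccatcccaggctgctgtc

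The other 4 ligands are given over 120 bases, CXCL1 (chr4:73869273-73869392, plus strand), CXCL2 (chr4:74099196-74099315, minus strand), CXCL3 (chr4:74038690-74038809, minus strand) and CXCL5 (chr4:73998678-73998797, minus strand):
CXCL1: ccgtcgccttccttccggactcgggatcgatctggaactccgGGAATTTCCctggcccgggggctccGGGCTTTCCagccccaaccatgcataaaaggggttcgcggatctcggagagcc
CXCL2: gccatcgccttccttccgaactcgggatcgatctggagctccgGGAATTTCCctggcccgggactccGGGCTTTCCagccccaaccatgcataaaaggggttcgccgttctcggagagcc
CXCL3: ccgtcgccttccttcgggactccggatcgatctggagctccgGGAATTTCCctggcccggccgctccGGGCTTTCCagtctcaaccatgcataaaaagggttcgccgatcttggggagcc
CXCL5: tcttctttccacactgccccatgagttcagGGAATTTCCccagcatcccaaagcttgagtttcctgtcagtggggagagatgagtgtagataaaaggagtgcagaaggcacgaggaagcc

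The letters GGAATTTCC stood in IL8 from base -91 to -83 before the start, in CXCL5 from -90 to -82, in CXCL1 and CXCL3 from -78 to -70 and in CXCL2 from -77 to -69. CCL20 held a match on the other strand, GGAAAACCC, from -79 to -71. CXCL1, CXCL2 and CXCL3 each held a further match, GGGCTTTCC, from -53 to -45. In the 250 bases before the start, GGNNNTTCC occurred in 17.1% of all 35116 RefSeq promoter entries, and in all 7 entries matched here. TATAAA, in 10.7% of the entries, occurred in IL8, CCL20 and CXCR4 among the 7. The search took these exact letters only. Shortly before the start CXCL1, CXCL2 and CXCL3 hold cataaa and CXCL5 holds gataaa, which differ from TATAAA in the first letter and are unmarked. The AP-1 letters, in 6.57% of the entries, occurred in IL8 alone of the 7, from -137 to -131. The SMAD letters, in 38.0% of the entries, occurred in CXCR4, CXCL2 and CXCL5 and in none of the other 4 within this window. These matches are descriptions of letters and were not tested for binding.

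Many other receptors and ligands of the family had few or no reads in HepG2. Of 25 chemokine receptor genes, 11 passed the filter, and 1, CCR7, was called higher and 0 lower, beside 3.11% higher and 1.01% lower over all tested genes. With the block CCR7, CXCR5 and CCBP2 were the 3 called higher and 0 were lower, beside 8.08% and 3.75% of all genes. The median log2 fold change of the 11 was 0.12, against -0.0054 over all tested genes. CXCR5 and CCR6 had the highest vehicle RPKM among receptors, 2.79 and 2.21. CXCR5, the receptor of CXCL13, had a log2 fold change of 0.34 (edgeR FDR 0.0566), which passed with the block (FDR 0.00811), and its span overlaps BCL9L, a β-catenin coactivator, with 0.35 (edgeR FDR 0.0488). CCR6, the receptor of CCL20, had 979, 1017 and 640 reads in vehicle cultures 1 to 3 and 1139, 1428 and 909 reads in TGFβ cultures 1 to 3, with a log2 fold change of 0.31 (edgeR FDR 0.453), and its span overlaps RP11-517H2.6, with between 3438 and 4574 reads. CCBP2, the atypical receptor ACKR2 that takes up inflammatory CC ligands, had 195, 127 and 136 reads in vehicle cultures 1 to 3 and 311, 276 and 184 reads in TGFβ cultures 1 to 3. Its scaled groups did not overlap, and its log2 fold change of 0.63 had an edgeR FDR of 0.157, and of 0.0459 with the block. CCRL1, an atypical receptor that takes up CCL19 and CCL21, had a vehicle level of 0.740 RPKM and a log2 fold change of -0.29 (edgeR FDR 0.566). CXCR1 and CCR2 were at 0 in all cultures, CXCR2 had between 5 and 7 reads, and CXCR6 between 2 and 14.

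Of 48 chemokine ligand genes, 12 passed the filter, 0 were called in either direction without the block (4.12% over all genes), and 25 had 0 reads in all 6 cultures. Their median log2 fold change was 0.04. CCL15 and CCL14, whose spans overlap, had vehicle levels of 9.92 and 3.75 RPKM. The log2 fold changes of CCL15 and CCL14 were 0.24 and 0.23 (edgeR FDR 0.232 and 0.287). CX3CL1, a membrane-bound ligand like CXCL16, had a vehicle level of 17.6 RPKM, next to CCL20. Its log2 fold change was -0.22 (edgeR FDR 0.475), and it fell with the block (FDR 0.011). With the block IL8, CCL20 and CX3CL1 were the 3 ligands called lower, and 0 were called higher, against 3.75% and 8.08% over all genes.

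The NF-κB list held 38 tested genes, of which 4 were called higher and 0 lower, beside 3.11% and 1.01% of all tested genes, with a median log2 fold change of -0.0032. TNFAIP2, a target of TNF signaling, rose by 1.76 (edgeR FDR 0.000555) on the log2 scale. BCL3, an atypical IκB that acts in the nucleus, rose by 1.28 (edgeR FDR 0.000593). NFKBIA, the inhibitor that holds NF-κB in the cytoplasm and is itself its target, rose by 0.66 (edgeR FDR 0.00525) and had the list's highest vehicle level, 34.7 RPKM. TNFAIP3, which removes activating ubiquitin from the pathway, was the other gene called, with 0.56 (edgeR FDR 0.00902). ICAM1 and SOD2, further known targets, had log2 fold changes of -0.09 each (edgeR FDR 0.89 and 0.785). With the block 7 were called higher and 3 lower, where 8.08% and 3.75% of all genes were. NFKBIZ, BIRC3 and TAB3 were the 3 lower.

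Among 24 tested upstream cytokines and receptors, 4 were called higher and 0 lower, against 3.11% and 1.01% over all genes, with a median of 0.11. These were TNFRSF12A, the TWEAK receptor, at 0.66 (edgeR FDR 0.00301), TNFRSF1A, the main TNF receptor, at 0.48 (edgeR FDR 0.00738), and the interferon-γ receptor chains IFNGR1 at 0.46 and IFNGR2 at 0.34. IRAK1, a kinase below the IL1 receptor, had 39.3 RPKM with vehicle and a log2 fold change of 0.07 (edgeR FDR 0.84). With the block 7 were called higher and 2 lower, against 8.08% and 3.75% over all genes.

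Among 24 tested genes of the chemokine processing and partners list, 4 were called higher and 0 lower, against 3.11% and 1.01% over all genes. The list also holds regulators of mRNA, and the called genes ZFP36, ZFP36L1 and AGO2 are of that kind. The list median was 0.08. With the block 6 were called higher and 0 lower, against 8.08% and 3.75%. ZFP36, which binds AU-rich elements and speeds decay of cytokine and chemokine mRNAs, had 516, 472 and 325 reads in vehicle cultures 1 to 3 and 1354, 1352 and 978 reads in TGFβ cultures 1 to 3. It rose by 1.39 (edgeR FDR 0.000213) on the log2 scale, and its relative ZFP36L1 rose by 0.82 (edgeR FDR 0.000478). SDC4, a heparan sulfate proteoglycan that can hold chemokines at the cell surface, rose by 0.90 (edgeR FDR 9.9e-05). AGO2 was the remaining gene called, at 0.76. GPC3, MIF and CTSD had the highest vehicle RPKM of this list, and their log2 fold changes were 0.08, 0.05 and 0.16, with edgeR FDRs of at least 0.614. ADAM10 and ADAM17, which shed CXCL16 and CX3CL1, had log2 fold changes of 0.06 and 0.07. Among 31 tested genes of receptor signaling, GNA13, a G protein that couples receptors to RHOA, was the 1 called, with a rise of 0.41 (edgeR FDR 0.012) and a list median of 0.12. That is 3.23% of the list, near the 3.11% called higher over all genes, and with the block 6 were called higher and 1 lower, against 8.08% and 3.75%. RHOA, GNG5 and CDC42 had the highest vehicle RPKM there and log2 fold changes of 0.11, 0.06 and 0.07.

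**Figure D4:**
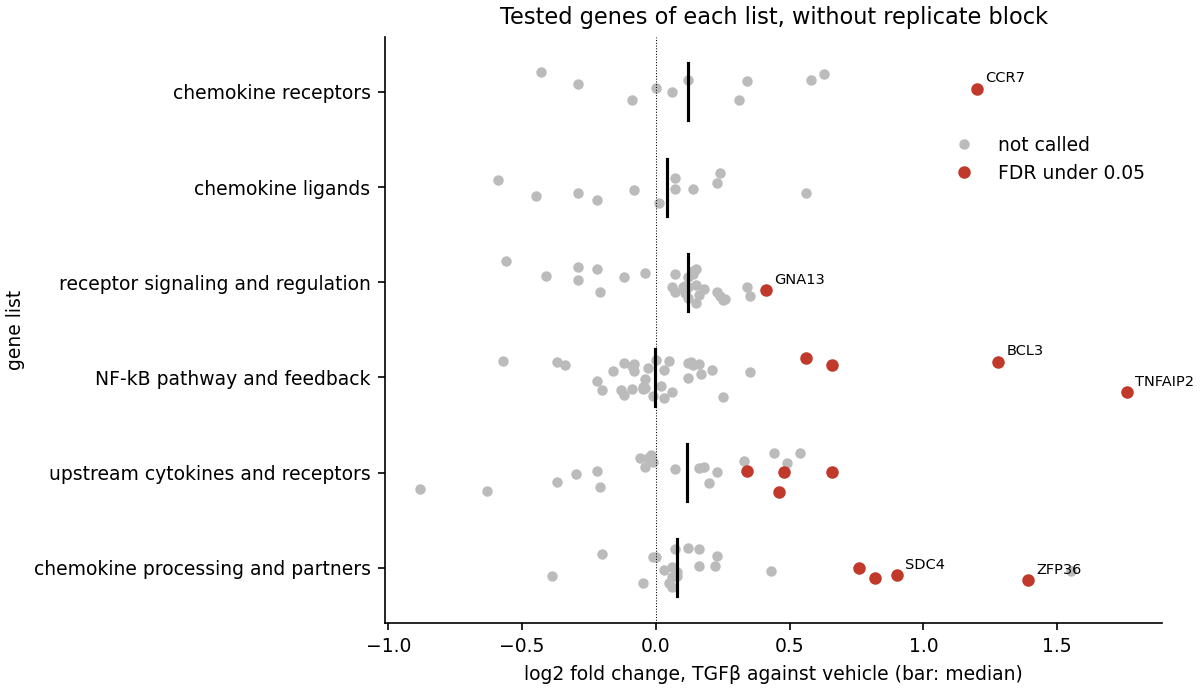
Log2 fold change without the block for each tested gene of 6 lists (points), with red for an FDR under 0.05 and a black bar at the list median; vertical spread within a list has no meaning. All 14 red points lie above 0, none of them is a chemokine ligand, and CCR7 is the red point among receptors.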

How the data were processed

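RNA from 6 HepG2 cultures (3 vehicle, 3 TGFβ, as labelled) was sequenced as 51-base pairs. The authors aligned reads to hg19, with TopHat2 2.0.6 and HTSeq named in their processing notes, and deposited raw counts per gene and RPKM. The strand setting, the rule for overlaps and the annotation were not given in the sources used here, so overlapping genes can share reads.

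Counts were analysed with edgeR 4.0.16 under R 4.3.3, using filterByExpr, TMM and the robust quasi-likelihood test without a block. FDRs cover all 22747 tested genes. SEs are those implied by the F statistic. Deposited RPKM served only for levels. The deviations of same-numbered cultures correlated at 0.366, 0.227 and 0.316 across genes, and of others at most at 0.0101. The labels do not say whether cultures were grown separately (the methods call them biological replicates), and p-values measure the spread between these samples. Intervals on reads cover counting error only. The fit was run on simulated data with independent libraries and the same spread setting for every gene. That run cannot show how the fit behaves when same-numbered cultures deviate together.

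The genes and lists were chosen with earlier results of these data known. Named were all 10 genes, the genes overlapping them, per list up to 3 called in each direction by size and the 3 highest by vehicle RPKM, and the 5 genes most like CCR7 and CXCR4. Other genes named were chosen after their values were seen. One gene that was examined is not reported here. Alternatives were DESeq2 1.42.0 and its size factors, voom from limma 3.58.1, total-count scaling, other filters, the block, and leaving out cultures.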

Additional observations from a re-analysis of the deposited data

How the results depend on the processing

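CCR7 was called higher under DESeq2 size factors, total-count scaling, both other filters, the DESeq2 test, limma-voom and the replicate block. In fits with no block, CCR7 lost its call without any 1 vehicle culture or without TGFβ replicate 2. With the block it kept its call without number 1, 2 or 3. The number of the 10 genes called, 1, lay between 0 and 1 when 1 culture was left out. With the replicate block, in the paired comparison, it was 3, and without both cultures of one number it lay between 2 and 3. Over all genes, 937 calls became 2690 with the replicate block, and between 485 and 998 with 1 culture left out, with the lowest value without vehicle replicate 3. With the block they were 2390, 1480 and 3063 without number 1, 2 and 3. Lists called 14 genes, 22 with the DESeq2 test, 38 with the replicate block, and 34, 21 and 33 with the block without number 1, 2 and 3. The log2 fold change of CXCR4 lay between -0.21 and 0.49 with 1 culture left out, and was -0.36 with the block and without number 2. It turned without vehicle culture 2, TGFβ culture 2 (-0.01) and TGFβ culture 3 (-0.14). That of CXCL5 lay between -0.32 and 0.33 and turned without vehicle culture 1 and TGFβ culture 3 (0.14), and with the block without number 1 (0.14) or 3 (0.10). That of CXCL16 lay between -0.08 and 0.15, turned without TGFβ culture 1, and was -0.00014 with the block and without number 1. CCR7, IL8 and CCL20 kept their direction in every fit run. With 1 culture left out and no block, CCR7 lay between 0.94 and 1.34, IL8 between -0.76 and -0.35 (highest without vehicle culture 3) and CCL20 between -0.48 and -0.09 (highest without TGFβ culture 1). The cause was not tested. Fits that leave out a number were added after the data were seen, as was counting read pairs in place of reads, since it is not known which of them a count is. Counting read pairs widened the ratio's interval to 0.0968 to 110.0 for CXCL1, 0.102 to 1.74 for CXCL2 and 0.00788 to 8.93 for CXCL3. Every count above 0 of CXCL1, CXCL2 and CXCL3 was even. Over all genes, between 46.3% and 47.5% of counts from 1 to 20 were even in each library. Depth limits CXCR4, CXCL5, CXCL1, CXCL2, CXCL3 and CCL2.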
